A study of Homo sapiens with 4 samples.

Results

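The SMAD family and its repressors SKI and SKIL were followed through 2 lists of sites from RNA recovered with PARP1 in HK-2 cells, a line of immortalised epithelial cells from the proximal tubule of the human kidney. The members were the genes with the symbols SMAD1 to SMAD7, SMAD9, SKI and SKIL, matched by the Ensembl identifier that the lists give each site. All 10 were present among the 20704 genes named, with 151 of the 166248 sites of the PARP1 immunoprecipitation (IP) 1 and 205 of the 229782 sites of IP 2. The series holds 4 samples of total RNA, 2 PARP1 IPs made from cell lysate with a Flag antibody and 2 inputs, and the labels name no treatment and no crosslinking. The inputs were not analysed here, no control IP is among the samples, and the labels do not say which tagged protein the antibody bound or whether the 2 IPs came from separate cultures, so differences between them may be technical. Each site is 1 mutated base of GRCh38 on 1 strand, with a count of tags that cover it and a count of mutated tags among them. The values are the authors' own.

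SMADs carry signals of the TGF-beta and bone morphogenetic protein (BMP) receptors into the nucleus. Receptor SMADs are phosphorylated by the receptors, SMAD2 and SMAD3 on the TGF-beta and activin side and SMAD1, SMAD5 and SMAD9 on the BMP side. They join the common SMAD, SMAD4, to bind DNA. The inhibitory SMADs, SMAD6 and SMAD7, block receptors and receptor SMADs and are themselves induced by the pathway. SKI and SKIL (also called SnoN) bind SMAD complexes and recruit corepressors. In the kidney tubule the TGF-beta branch through SMAD3 is known for driving matrix gene expression.

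A few sequences show what a listed base is. They are the RNA-sense reference sequence of GENCODE release 29 transcripts, 5′ to 3′, with the listed bases in capitals and 12 bases on each side, and were chosen because they hold the exon sites discussed below.
SMAD4, 3′ untranslated region (UTR), insertion listed in both IPs, chr18:51082721-51082745, plus strand: ttgaatttttagTttttttttttta
SMAD3, coding sequence, 3 neighbouring deleted bases of IP 1, chr15:67184829-67184855, plus strand: gctggcacccggCCAccgtctgcaaga
SMAD3, start of an alternative transcript, substitution of IP 2, chr15:67125754-67125778, plus strand: gagcctgctgctGagttcactggtg
SMAD5, coding sequence, deletion of IP 1, chr5:136160909-136160933, plus strand: cttctggttcagTttaggaacctga
SMAD6, 5′ UTR, deletion of IP 2, chr15:66702799-66702823, plus strand: taagcgctttggTttaaaaaaaagg
SMAD2, 3′ UTR, substitution of IP 2, chr18:47826137-47826161, minus strand: agcctaatctaaTatacataaggaa
SKI, 3′ UTR, 2 deleted bases of IP 1, chr1:2307944-2307969, plus strand: ctgactcgtgtcTTtttacccccaag
SKIL, coding sequence, 2 deleted bases of IP 2, chr3:170360893-170360918, plus strand: gatgaactgtacATatattgttcaag
The SMAD4 insertion lies at the start of 12 T in a row within this window, and the SKI deletion in 5. Of the members' exon deletions and insertions, 12 of 20 distinct bases lay in 3 or more equal bases in a row (60%, exact 95% binomial interval 36.1 to 80.9), against 49.0% of 9311 such bases in the exons of all protein-coding genes. Of their exon substitutions, 2 of 8 did (25.0%, interval 3.19 to 65.1), against 16.5% of 9541.

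All 10 members were named in both IPs, against 55.4% of all 19951 protein-coding genes and 76.8% of genes in the same range of spans (the 6th to 9th of 10 bins, 27.1 to 159 kb). A sense site is one on the gene's own strand, and the members' sense sites numbered 145 in IP 1 and 179 in IP 2. All 10 members held one in each IP, against 50.7% of protein-coding genes. SMAD3 alone held 70 of the 145 (48.3%) and 54 of the 179 (30.2%). Of the tags over the members' sense sites it held 69.7% of 722 in IP 1 and 52.2% of 776 in IP 2. These sums count a tag count again at each neighbouring base, and with each run taken once, at its highest tag count, SMAD3 held 61.3% of 501 and 47.0% of 609.

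**Figure D1:**
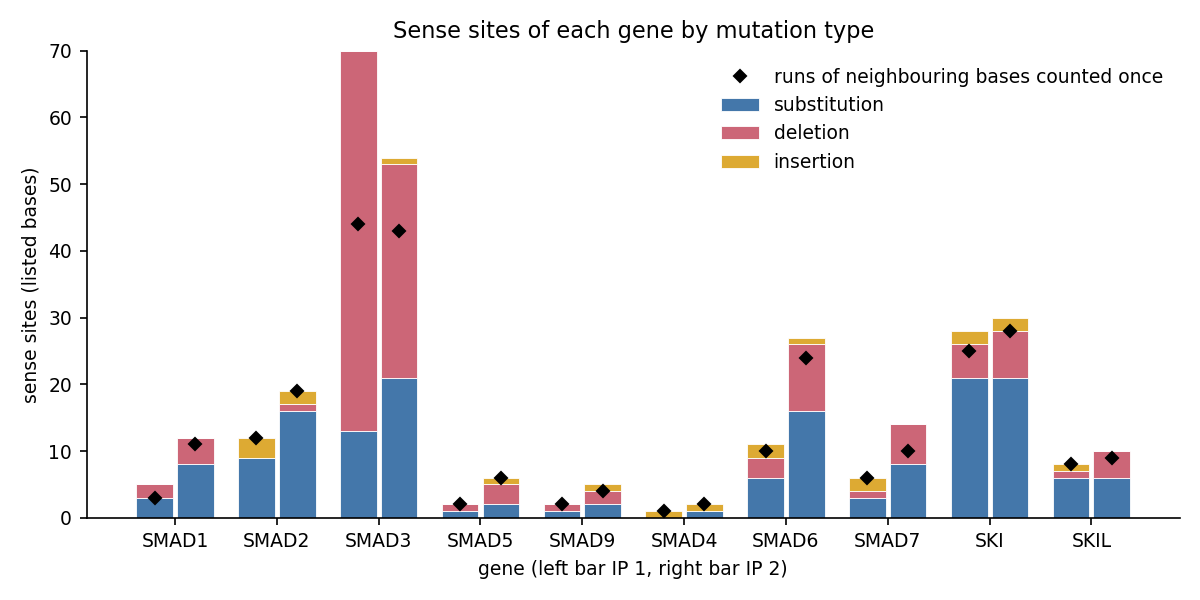
Sense sites of each gene (y axis, listed bases) in IP 1 (left bars) and IP 2 (right bars), divided by mutation type, with diamonds for the number left when neighbouring bases of 1 mutation type count once. SMAD3 stands at 70 and 54 bases and at 44 and 43 runs, SKI at 28 and 30 bases, and SMAD4 at 1 and 2.

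Per 10 kb of gene span, SMAD3 had the highest mean density of the 10, at 5.33 in IP 1 and 4.11 in IP 2 (mean 4.72 ± 0.86, SD, n = 2), although SMAD7 was above it in IP 2. SKI followed at 3.44 and 3.68, then SMAD7 at 1.86 and 4.35, SMAD6 at 1.36 and 3.35, and SKIL at 2.04 and 2.55. SMAD2 (0.98 and 1.55), SMAD1 (0.65 and 1.56), SMAD5 (0.36 and 1.07), SMAD9 (0.26 and 0.66) and SMAD4 (0.18 and 0.35) were lower. The ranges of the 2 IPs did not overlap between SMAD3 and SKI, nor between SKIL and SMAD2. Counted as runs, in which neighbouring bases of 1 mutation type count once, SMAD3 stood at 3.35 in IP 1 and 3.27 in IP 2 and SKI at 3.07 and 3.44, so these ranges overlapped and SKI was the higher in IP 2. By listed bases, every other pair of neighbours in this order overlapped, so their order is not resolved. The median over all protein-coding genes was 0.27 in IP 1 and 0.41 in IP 2. With no input values, how strongly each gene is transcribed was not separated from how often it is listed, and more RNA in the cells cannot be told apart from more RNA bound.

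By class, the density per 10 kb over the receptor SMADs together was 1.97 in IP 1 and 2.08 in IP 2. For the other classes it was, in the same order of IPs, 0.18 and 0.35 for the common SMAD, 1.51 and 3.63 for the inhibitory SMADs, and 2.99 and 3.32 for SKI with SKIL. The receptor value was carried by SMAD3, since the other 4 receptor genes together had 0.63 in IP 1 and 1.27 in IP 2. Without SMAD3 the receptor SMADs stood below the inhibitory SMADs in each IP, and with it above them in IP 1 and below them in IP 2. Counted as runs, the receptor SMADs were below the inhibitory SMADs in IP 1 too, at 1.36 against 1.42, and in IP 2 at 1.80 against 3.01. Within the receptor class the genes ranged from 0.26 to 5.33 in IP 1 and from 0.66 to 4.11 in IP 2, which spans nearly the whole range of the 10 members. SMAD2 and SMAD3, the pair that shares the TGF-beta branch, did not have like densities. Genes are not replicates of a class and the common class has 1 gene, so no test was made between classes.

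**Figure D2:**
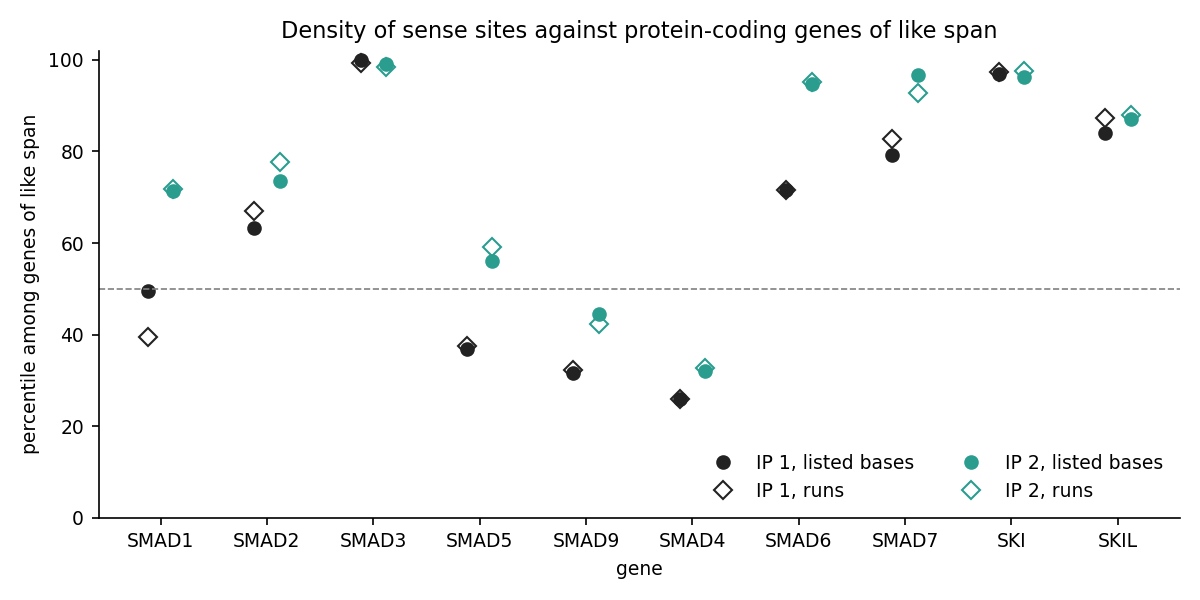
Percentile of each gene's density of sense sites among protein-coding genes in the same span bin (y axis), for IP 1 (black) and IP 2 (green), from listed bases (filled) and from runs of neighbouring bases (open). SMAD3 lies at 98.5 or above in all 4 readings, SKI at 96.4 or above, and SMAD4 at 32.8 or below.

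Against genes of like span, 6 of the 10 members were above the 50th percentile in IP 1 and 8 in IP 2, and the median member was at 67.4 and 80.4. Of 1995 genes in its bin, SMAD3 was 2nd by listed bases and 16th by runs in IP 1, and 19th and 31st in IP 2. Percentiles in IP 1 and IP 2 were 97.0 and 96.4 for SKI, 79.2 and 96.8 for SMAD7, 71.6 and 94.7 for SMAD6, and 84.1 and 87.1 for SKIL. They were 63.3 and 73.6 for SMAD2, 49.5 and 71.4 for SMAD1, 37.0 and 56.1 for SMAD5, 31.7 and 44.4 for SMAD9, and 25.9 and 32.0 for SMAD4. The median density in the span bin of SMAD3 was 0.66 per 10 kb in IP 1 and 0.82 in IP 2. The 3 protein-coding genes closest to SMAD3 in span are examples only, at percentiles of 26.9 to 69.1 in IP 1 and 26.7 to 61.4 in IP 2. OMA1 held 2 in IP 1 and 9 in IP 2, CWF19L2 held 15 in each, and GLT1D1 held 2 and 3.

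SMAD3 (ENSG00000166949, chromosome 15, 67063763 to 67195195, plus strand, 131 kb) encodes the receptor SMAD that binds DNA directly downstream of TGF-beta. Its 70 sense sites of IP 1 were 57 deletions and 13 substitutions, and its 54 of IP 2 were 32 deletions, 21 substitutions and 1 insertion. Deletions therefore made up 81.4% of its sense sites in IP 1 (interval 70.3 to 89.7) and 59.3% in IP 2 (45.0 to 72.4), against 25.7% and 26.5% over all protein-coding genes. Among genes with 10 or more sense sites, 8.70% had more than 50% deletions in IP 1 and 9.89% in IP 2, and 2.12% did so in both. Of the 4 members with 10 or more sense sites in each IP, SMAD3 met this in both, and SMAD2, SMAD6 and SKI in neither. Counted as runs, deletions were 31 of 44 in SMAD3 in IP 1 (70.5%, interval 54.8 to 83.2) but 21 of 43 in IP 2 (48.8%, 33.3 to 64.5), which no longer exceeds 50%. Every SMAD3 deletion had 2 mutated tags, except those of IP 1 at 67115764 to 67115765 and 67150481 to 67150488, with 3. None of the 13 SMAD3 sites of IP 2 with 3 or more mutated tags was a deletion. With 2 mutated tags, deletions are listed at up to 14 tags and substitutions at no more than 2. Whether the share of deletions follows depth was not tested.

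Many of the deleted bases of SMAD3 stood side by side. In IP 1, 42 of its 70 sense sites lay in 16 runs of 2 or more neighbouring bases of the same mutation type, and in IP 2, 18 of 54 lay in 7 runs. The longest run of IP 1 covered 8 deleted bases in an intron (67150481 to 67150488), each with 6 tags of which 3 were mutated. The longest of IP 2 covered 4 (67148255 to 67148258), each with 14 tags and 2 mutated. The lists do not say whether the same tags carry neighbouring deletions. Counted once per run, SMAD3 had 44 in IP 1 and 43 in IP 2. Runs were common among deletions in general, with 59.4% of deleted sense bases of protein-coding genes in IP 1 and 60.2% in IP 2 in a run, against 42 of 57 (73.7%, interval 60.3 to 84.5) and 18 of 32 (37.7 to 73.6) in SMAD3.

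The IPs differed in their count of SMAD3 bases. IP 1 gave 56.5% of the SMAD3 sense sites of both lists (interval 47.3 to 65.3), although it gave 41.98% of all listed sites and 45.3% of the sense sites of protein-coding genes. Of 5889 genes with 10 or more sense sites over both lists, 8.54% had an interval wholly above the share of all sites and 2.28% one wholly below it. Among the members SMAD3 was above, and none was below. Counted as runs, the share was 50.6% (interval 39.6 to 61.5). This interval took in the share of all sites and that of the sense runs of protein-coding genes (45.5%). No member was therefore above by runs, against 6.22% of genes. The other 9 members each had more sense sites in IP 2 than in IP 1. Their joint share from IP 1 was 37.5% (30.8 to 44.6). This interval took in the 41.98% of all listed sites but lay below the 45.3% of sense sites of protein-coding genes. Intervals cover counting error only, and sites of 1 gene share their source. On the opposite strand SMAD3 had 2 sites in IP 1 and 13 in IP 2, of which IP 1 gave 13.3% (1.66 to 40.5), against 36.6% over all protein-coding genes.

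SMAD3 sites were also more deeply covered than those of most genes. A sense site of SMAD3 had a median of 7 tags in IP 1 and 6 in IP 2, against 2 over all protein-coding genes in both. Sites with 5 or more tags were 50 of 70 in IP 1 (71.4%, interval 59.4 to 81.6) and 34 of 54 in IP 2 (63.0%, 48.7 to 75.7), against 8.96% and 9.45% over all. With each run taken once, at its highest tag count, they were 28 of 44 in IP 1 (63.6%) and 25 of 43 in IP 2 (58.1%). The SMAD3 medians were then 7 and 5. The other values of this paragraph are by listed bases. A median of 5 or more was found in 1.89% of genes with 10 or more sense sites in IP 1, in 1.65% in IP 2, and in 0.795% in both IPs. In IP 1 15 of 3128 such genes had a higher median than SMAD3, and in IP 2 19 of 3702. The depth held within mutation types: 47 of 57 SMAD3 deletions in IP 1 and 24 of 32 in IP 2 had 5 or more tags, against 20.7% and 20.9% of all deletions. The same held for 3 of 13 and 9 of 21 of its substitutions, against 3.85% and 4.28%. In the lists a deletion with 2 mutated tags occurs at up to 14 tags and a substitution with 2 mutated tags at no more than 2.

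**Figure D3:**
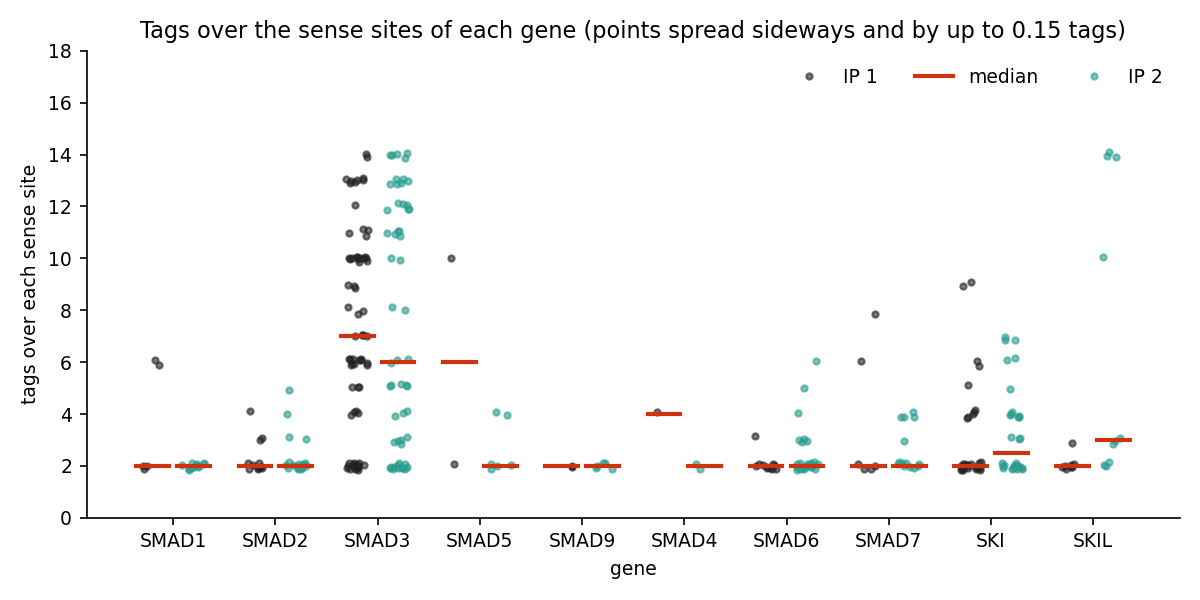
Tags over every sense site of each gene (y axis, points, moved slightly so that equal values can be seen), for IP 1 and IP 2, with a red line at each median. SMAD3 has medians of 7 and 6 and sites up to 14 tags, while SMAD1, SMAD2, SMAD6, SMAD7 and SMAD9 have medians of 2 in each IP.

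The other members had few deep sites. Without SMAD3 the members' sense sites had a mean of 2.92 tags in IP 1 and 2.97 in IP 2, near the means of 2.70 and 2.74 over all protein-coding genes. SKI had 5 of 28 sense sites with 5 or more tags in IP 1 and 6 of 30 in IP 2, and SMAD2 0 of 12 and 1 of 19. SKIL had 0 of 8 in IP 1 and 4 of 10 in IP 2. Those 4 were deletions in its coding sequence, with 10 or 14 tags of which 2 were mutated. Deletions were 18.7% of the sense sites outside SMAD3 in IP 1 (interval 10.6 to 29.3) and 29.6% in IP 2 (21.8 to 38.4), and both intervals took in the share over all genes.

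Along SMAD3, the sites were spread over the whole gene. Cut into 4 equal stretches from start to end, its span held 16, 22, 16 and 16 of the IP 1 bases and 8, 12, 19 and 15 of the IP 2 bases. The first intron of the reference transcript, the one with the longest coding sequence, takes up 74.97% of the span and held 55 of 70 sites in IP 1 (78.6%) and 40 of 54 in IP 2 (74.1%). Introns held 63 of the 70 sites in IP 1 and 51 of the 54 in IP 2 by the authors' annotation, the 3′ UTR 4 and 3, and the coding sequence 3 and 0. The coding sites of IP 1 are the 3 neighbouring deleted bases printed above, with 10 or 11 tags. Introns thus held 90.0% and 94.4%, close to the 90.6% and 91.2% over all protein-coding genes.

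**Figure D4:**
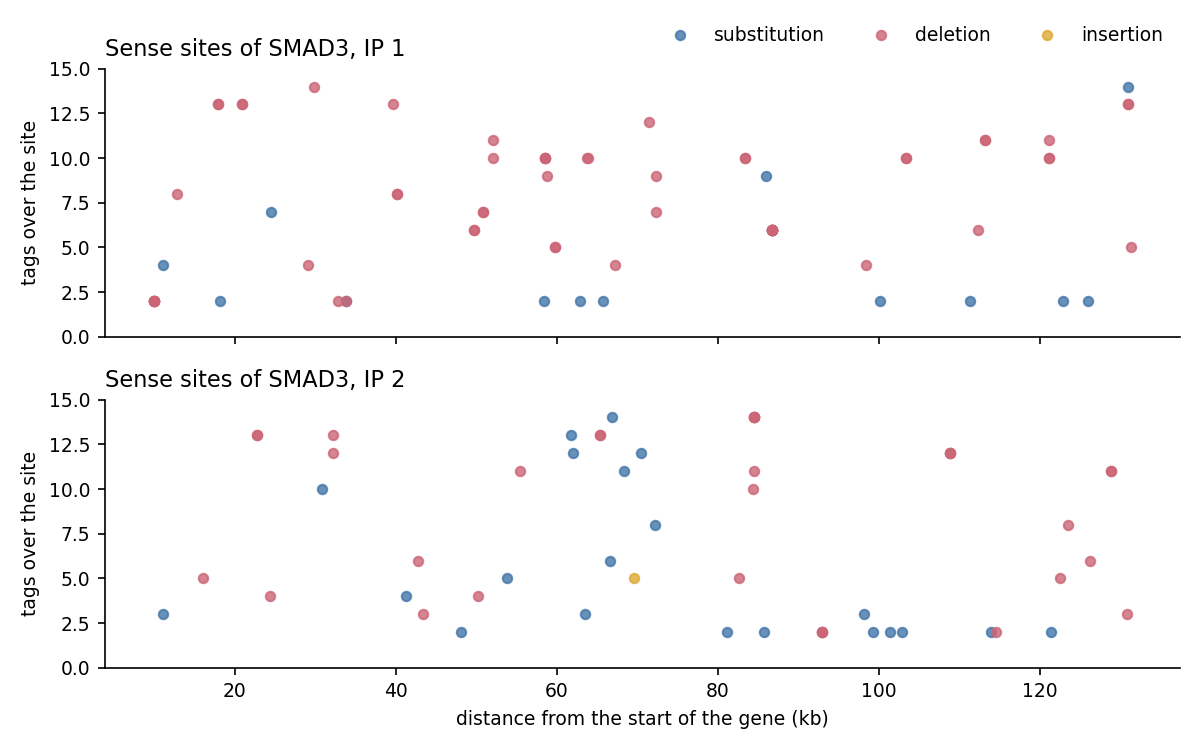
Tags over each sense site of SMAD3 (y axis) against its distance from the start of the gene in kb (x axis), in IP 1 (upper) and IP 2 (lower), coloured by mutation type. Sites of 5 or more tags run along the whole gene, mostly deletions in IP 1, and 7 substitutions of IP 2 with 6 to 14 tags lie between 61.7 and 72.2 kb.

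The substitutions of SMAD3 with the most mutated tags lay in the middle of the gene in IP 2. The strongest base of IP 2 (67125462) had 13 tags of which 10 were mutated, followed by 7 of 12 at 67134264 and 6 of 12 at 67125766. The last of these is 24 bases past a RefSeq start of SMAD3 (GRCh38.p14) and is the substitution printed above. The authors' annotation calls it intronic and GENCODE release 29 places it in an exon of an alternative transcript. Of the 9 substitutions of IP 2 with 5 or more tags, 7 fell within 10.5 kb (67125462 to 67135996), 8.02% of the span, a stretch chosen after the values were seen. In IP 1 none of the 3 substitutions with 5 or more tags lay there, while 4 deletions and 2 substitutions did, with 2 to 12 tags. The strongest base of IP 1 (67088271) had 6 of 7 tags mutated and was not listed in IP 2.

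Of the other TGF-beta receptor SMAD, SMAD2 (ENSG00000175387, chromosome 18, 47808957 to 47931146, minus strand, 122 kb), the 12 sense sites of IP 1 were 9 substitutions and 3 insertions, with no deletion. The 19 of IP 2 were 16 substitutions, 2 insertions and 1 deletion. SMAD2 is of nearly the same span as SMAD3 and had 28 tags over its sense sites in IP 1 and 45 in IP 2, where SMAD3 had 503 and 405, or 307 and 286 with each run taken once. Its 3′ UTR held 1 site in IP 1 and 5 in IP 2, among them the base with 5 of 5 tags mutated that is printed above, and its coding sequence held 1 in IP 1. Annotated exons make up 29.8% of its span, against 6.93% for SMAD3. No neighbouring bases were listed in SMAD2.

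The BMP receptor SMADs were listed sparsely. SMAD1 (ENSG00000170365, chromosome 4, 145481194 to 145558079, plus strand) counted 5 on its own strand in IP 1 and 12 in IP 2, all in introns by the authors' annotation, although GENCODE release 29 places 3 of the 12 in an exon of some transcript. Its deepest sites in IP 1 were deletions with 6 tags and 2 mutated, and in IP 2 every site had 2 tags. SMAD5 (ENSG00000113658, chromosome 5, 136132845 to 136188747) had 2 and 6, including the coding deletion of IP 1 printed above, which had 10 tags of which 2 were mutated. SMAD9 (ENSG00000120693, chromosome 13, 36844831 to 36920765, minus strand) had 2 and 5, all intronic with 2 tags each. No member of this branch had a base listed in both IPs.

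SMAD4 (ENSG00000141646, chromosome 18, 51028394 to 51085045, plus strand) had the fewest of the 10, with 1 in IP 1 and 2 in IP 2, all in the 3′ UTR. The insertion at 51082733, at the start of the row of T printed above, was listed in both IPs, with 2 of 4 tags mutated in IP 1 and 2 of 2 in IP 2. It is the single exon base of a member that recurred. None of its 43529 intron bases was listed as SMAD4 in either IP. An overlapping protein-coding gene on the same strand, AC091551.1, was assigned 2 further sense-strand sites inside the SMAD4 span in IP 1 and 1 in IP 2. With these, the SMAD4 span held 3 in each IP, above the 2 of SMAD5 and of SMAD9 in IP 1. Its place as lowest in IP 1 thus rests on the authors' gene assignment.

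The inhibitory SMADs lay almost wholly in introns and had more sites in IP 2 than in IP 1. SMAD6 (ENSG00000137834, chromosome 15, 66702228 to 66782848, plus strand) counted 11 in IP 1 and 27 in IP 2, of which 11 and 26 fell in intron 3, which is 80.0% of the span. The remaining site, in the 5′ UTR of IP 2, is the deletion printed above, with 5 tags and 2 mutated. SMAD7 (ENSG00000101665, chromosome 18, 48919853 to 48952052, minus strand), which recruits ubiquitin ligases to TGF-beta receptors, had 6 and 14, all intronic. The deepest SMAD7 site of IP 1 was an insertion with 2 of 8 tags mutated. In IP 2 the strongest was a substitution with 3 of 3 tags mutated, and 4 neighbouring deleted bases with 4 tags each lay 3.18 kb from the gene start. IP 1 gave 28.9% of the SMAD6 sites (interval 15.4 to 45.9) and 30.0% of the SMAD7 sites (11.9 to 54.3), and both intervals took in the 41.98% of all listed sites. No base of either gene recurred between the IPs (0 of 11 and 0 of 6 sites of IP 1).

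SKI (ENSG00000157933, chromosome 1, 2228695 to 2310119, plus strand) counted 28 in IP 1 and 30 in IP 2. By raw counts this was the most even pair among the members with 10 or more in each. Scaled to the sites of each list, the ratio of IP 2 to IP 1 was 0.78 for SKI and 1.15 for SMAD2, so SMAD2 was then the most even. Substitutions made up 21 of the SKI sites in each IP. Its first intron, 90.0% of the span, held 25 and 29. The strongest base of IP 1 (2298114) had 6 of 6 tags mutated, and that of IP 2 (2281049) 5 of 6. The 3′ UTR held 3 sites in IP 1 and none in IP 2, and 2 of the 3 are the neighbouring deletions printed above, with 9 tags and 2 mutated. SKIL (ENSG00000136603, chromosome 3, 170357678 to 170396835, plus strand) counted 8 in IP 1, all intronic, and 10 in IP 2, of which 6 were intronic and 4 in coding sequence.

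**Figure D5:**
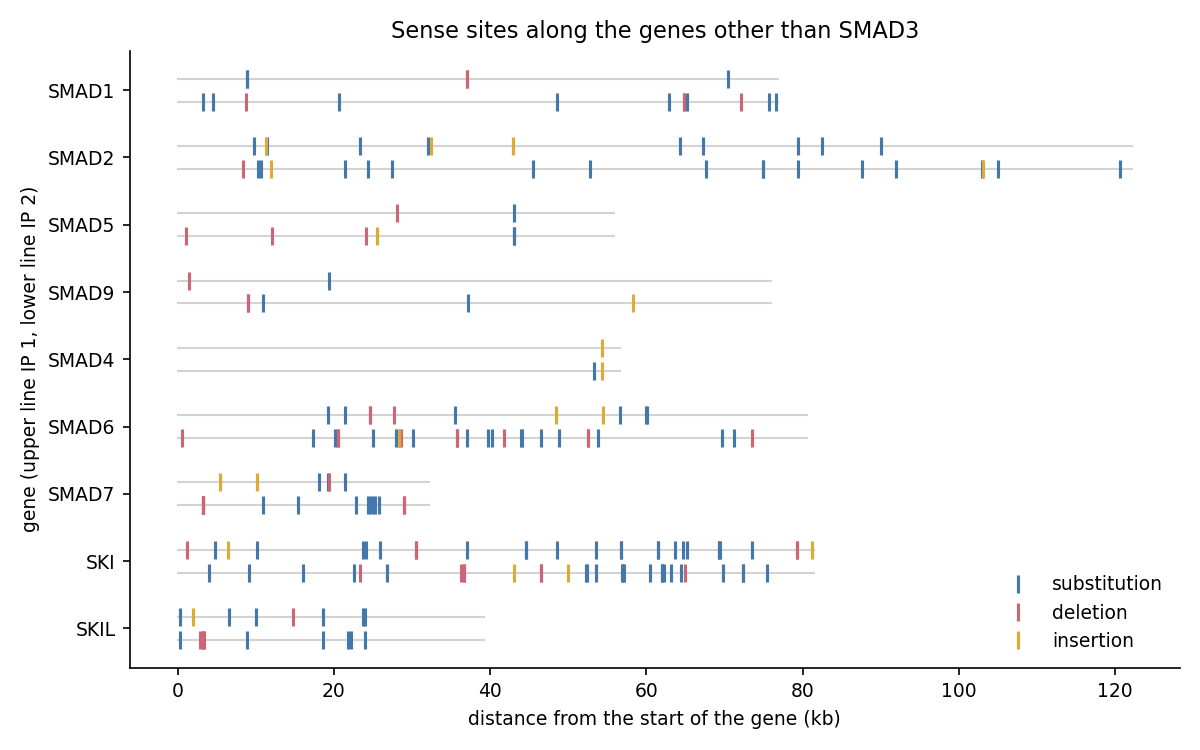
Sense sites along the 9 genes other than SMAD3, by distance from the gene start in kb (x axis), with IP 1 on the upper and IP 2 on the lower line of each gene and ticks coloured by mutation type. SKI sites run along its whole span, SMAD6 sites other than the 5′ UTR deletion lie between 17.4 and 73.5 kb, and the SMAD4 sites lie beyond 53 kb.

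A base listed on the same strand in both IPs was found in 5 of the 10 members, against 14.1% of all protein-coding genes and 20.1% of genes in the span range of the members. There were 7 such bases, which is 4.83% of the members' sense sites in IP 1 (interval 1.96 to 9.69) and 3.91% in IP 2 (1.59 to 7.89). Over all protein-coding genes the shares were 4.96% and 4.11%. SKIL held 3 of the 7, at 170357913, 170376274 and 170381605, all intronic substitutions. The first lies 0.235 kb from the start of the gene and had 3 of 3 tags mutated in each IP. The second had 2 of 2 in IP 1 and 3 of 3 in IP 2, and the third 2 of 2 in each. SMAD3, with the most sites, held 1 (67074846, an intronic substitution with 4 of 4 tags mutated in IP 1 and 3 of 3 in IP 2). That is 1.43% of its sense sites in IP 1 (interval 0.0362 to 7.70). SMAD2 shared an intronic substitution at 47851782, with 4 of 4 and 2 of 2, and SKI another at 2282205, with 2 of 2 in IP 1 and 3 of 7 in IP 2. Allowing a distance of 10 bases added none.

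Sites on the strand opposite a member numbered 6 of 151 in IP 1 (3.97%, interval 1.47 to 8.45) and 26 of 205 in IP 2 (12.7%, 8.45 to 18.03), against 11.1% and 15.2% over protein-coding genes. Annotated antisense genes overlap SMAD1, SMAD2, SMAD3 and SMAD5. Counted over the whole length of each gene, AC087482.1, antisense to SMAD3, had 4 sites in IP 1 and 3 in IP 2, and SMAD5-AS1 had 0 and 1. SMAD1-AS1 and SMAD1-AS2 had none. Inside the SMAD3 span the opposite strand held 2 sites in IP 1 and 14 in IP 2, and 2 and 13 of these were given to SMAD3 itself. None of the 4 sites of AC087482.1 in IP 1 therefore lay inside SMAD3. The SMAD5 span held 0 on its opposite strand in each IP, so the SMAD5-AS1 site lay outside it.

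Around the members, a list of 62 genes known to act on or with SMADs was counted, among them ubiquitin ligases, phosphatases, anchors, nuclear transport factors, corepressors and partner transcription factors. Of them 53 (85.5%) were named in both IPs, against 55.4% of all protein-coding genes and 76.8% in the members' range of spans. A base listed in both IPs was found in 17 (27.4%), against 14.1% and 20.1%, and their median percentile for span was 74.4 in IP 1 and 71.8 in IP 2. The regulators ran from 2647 bases (STUB1) to 1216867 bases (RUNX1) in span. They thus went beyond the members' range on both sides, and the 76.8% and 20.1% are not matched to them. Among the regulators with shared bases, the ubiquitin ligase ITCH and the partner factor RUNX2 had 4 each, RUNX1 had 3, and the ubiquitin ligases NEDD4L and RNF165 were among those with 2. On its own strand, RUNX2 counted 59 in IP 1 and 71 in IP 2, and NEDD4L 62 and 78. The median was 2 tags per site in each IP in both. BAMBI, FKBP1A, FOXO1 and STUB1 were named in neither IP. Inside FKBP1A, 9 bases of its strand in IP 1 and 7 in IP 2 were assigned by the authors to the overlapping AL136531.2.

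The lists hold 419675 tags in IP 1 and 572870 in IP 2 over all sites, with a median of 2 tags and 2 mutated tags per site, and this is not the depth of the libraries. The label of the cells was checked against markers. Of 16 renal epithelial markers 12 had sense sites in both IPs, against 50.7% of all protein-coding genes, and ANPEP and AQP1 had none in either. The counts were 2 of 5 for endothelial, 1 of 5 for leukocyte and 1 of 5 for fibroblast markers. Against genes of like span, the median percentile of the renal markers was 38.6 in IP 1 and 55.7 in IP 2. It was 42.7 and 10.9 for fibroblast, 31.5 and 29.9 for leukocyte, and 15.96 and 25.3 for endothelial markers, so in IP 1 the renal markers did not stand above the fibroblast markers.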

How the data were processed

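Each PARP1 IP has 1 deposited list, whose tag and mutated-tag columns are raw counts of the authors per the file headers. The authors' FDR, read as an adjusted p-value, and their score, equal to the mutated tags in every row, come with each base per the file headers. Per the labels' protocols, cDNA was primed with random hexamers and PCR-amplified. The submitters' processing notes name bcl2fastq, TopHat2 and GRCh38. How bases were called, with which thresholds, and whether duplicates were removed is not given in the sources used here. Lists were matched to the IPs by their names. The authors' gene and region were used, with spans, exons and transcript sequences from GENCODE release 29, and start windows from RefSeq (9 of 10 members matched).

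Density is sense sites per 10 kb, and percentiles are among protein-coding genes in 1 of 10 span bins. Runs join neighbouring bases of 1 IP, strand and mutation type. Intervals are exact (Clopper-Pearson) at 95%. Nothing was tested between groups. Members and lists were chosen with earlier results of these data known, and runs were added after the data were seen. Every member is named, with its strongest sites, all bases shared by the IPs, regulators with most shared bases and those with none, apart from some items that are not reported here. Counting was checked on simulated data. Python 3.11.15, pandas 2.3.3 and SciPy 1.17.1 were used.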

Additional observations from a re-analysis of the deposited data

How the results depend on the processing

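No paired analysis was possible because the inputs were not analysed here and the 2 IPs belong to 1 group. The 10 members stayed named in both IPs with sense sites only and with an FDR filter that kept bases under the commonest FDR of their list. The 324 sense sites of both IPs fell to 187 with that filter and to 55 with 3 or more mutated tags, and were 145 to 179 with 1 IP left out. The 7 shared bases fell to 3 with the FDR filter. Mean class densities per 10 kb were 2.02 for receptor, 0.26 for common and 2.57 for inhibitory SMADs and 3.15 for SKI with SKIL. The receptor value was 0.95 without SMAD3, 1.29 with the FDR filter, 1.36 for exon sites per 10 kb of exon and 2.13 for intron sites per 10 kb of intron. On the exon scale the common SMAD stood at 1.14, the inhibitory at 0.37 and SKI with SKIL at 2.52, and on the intron scale the common SMAD at 0. With the FDR filter SKI with SKIL stood at 1.49 and the inhibitory SMADs at 1.33, near the receptor value. Among the members the commonest FDR was that of substitutions with 2 of 2 tags mutated, so this filter bears unevenly on mutation types. It kept 61 of 70 SMAD3 sites in IP 1 and 33 of 54 in IP 2, and 11 of 28 and 18 of 30 SKI sites. Counted as runs, the receptor SMADs stood at 1.58 and SKI with SKIL at 2.90. Deletions made up 43.2% of the members' sense sites, 18.2% with 3 or more mutated tags, 32.3% as runs, 25.5% without SMAD3, and 38.5% to 49.0% with 1 IP left out. The IP 1 share of all members' sense sites was 2.77 points above that of all listed sites. As runs, it was -3.45 points from that of the sense runs of protein-coding genes. Set against sense sites of protein-coding genes, the members' share in bases was -0.57 points away. For SMAD3 the excess in bases was 14.5 points over all listed sites and 11.1 over sense sites of protein-coding genes. As runs it was 5.12 over the sense runs of those genes. Scaled to the sites of each list, the ratio of IP 2 to IP 1 went from 1.07 to 0.78 for SKI and from 1.25 to 0.90 for SKIL. Beyond the different references, the cause of these shifts was not tested. With a median of 2 tags, sites of members other than SMAD3 are known to few tags, and counts of 1 to 6 sites in SMAD4, SMAD5 and SMAD9 resolve no order.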
